A study of Brassica rapa with 6 samples.

Results

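The lipid-transfer protein genes of Brassica rapa, here Chinese cabbage, were set side by side in petiole, the stalk of the leaf, and in leaf. The genes were chosen by name: 68 of 45517 genes had an annotated transcript whose description contains "lipid transfer protein" with a space or hyphen. Both tissues came from wild type plants grown in a greenhouse, with 3 libraries for petiole and 3 libraries for leaf, and no group carried a treatment or mutation. The libraries were made from total RNA after removal of ribosomal RNA, with a strand-specific kit. Whether each library stands for its own plant is not stated in the labels. P-values therefore reflect the spread among these libraries alone, and part of it may be technical.

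Lipid-transfer proteins are small, mostly secreted proteins held together by cysteine bridges, with a greasy inner cavity that binds fatty acids and other lipids. In leaves and stems they are known from the cell wall and the cuticle, the waxy skin of the epidermis, and some carry signals or act in defence. By description the 68 members fell into 5 groups. The 30 non-specific lipid-transfer proteins (nsLTPs) are the secreted core of the family. The 22 GPI-anchored or xylogen-type members sit on the outer face of the plasma membrane by a lipid anchor or resemble xylogen, a wall protein known from forming xylem vessels of Zinnia. The 5 DIR1-type members are named after DIR1, which in Arabidopsis is needed for long-distance resistance signalling. The 5 EARLI-type members are named after EARLI 1, a proline-rich wall protein of Arabidopsis. The 6 glycolipid transfer proteins are unrelated in fold, and move glycolipids between membranes inside the cell.

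The annotation held further features that the choice by name did not use, though terms such as lipid transport may go with the names themselves. Of the 66 members with a Gene Ontology term, 53 carried lipid transport and 40 extracellular region. Anchored component of membrane was assigned to 18 members, peptidase activity to 12, plant-type cell wall to 10, endoplasmic reticulum to 8 and cuticle development to 4. Coding lengths ran from 177 to 729 bases, with a median of 397.5. All 5 DIR1-type and all 5 EARLI-type genes have 1 exon, as do 12 of the 30 nsLTP genes, and none of the 6 glycolipid transfer genes do. The members lie on all 10 chromosomes, A01 to A10. Another 4 genes, described as lipid transfer-like protein VAS, were not taken in by the wording of the rule.

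The libraries were deep and alike within a tissue. Petiole libraries held 120805715 to 132861243 estimated transcript counts and leaf libraries 111518411 to 121161682. A gene value is the sum over the annotated transcript and the assembled ones that are contained in it or use one of its splice junctions. Gene values took 76.3% to 78.3% of the counts in petiole and 59.2% to 63.6% in leaf. Levels are given as CPM (gene-value counts scaled to a common library size) after TMM normalization, a scaling that sets the bulk of genes equal. Markers of leaf mesophyll were low in petiole: 27 of 28 tested light-harvesting and Rubisco small chain genes fell and 0 rose, with summed levels of 548 to 598 CPM in petiole and 8659.9 to 9022 CPM in leaf. Of 20 tested xylem markers 12 rose and 1 fell, with sums of 203 to 253 CPM in petiole and 79.5 to 88.3 CPM in leaf.

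Most of the family's transcripts came from a few genes, and they were more abundant in petiole. The summed level of all 68 members was 2253, 2337 and 2371 CPM in the petiole libraries and 487, 489.7 and 479 CPM in the leaf libraries, so that the lowest petiole library stood above every leaf library. The ratio of the means was 4.78. Without the 6 most abundant members the sums were 168 ± 1.52 CPM in petiole and 135 ± 1.11 CPM in leaf (SD, n = 3 each), a ratio of 1.24. The summed difference therefore lay mostly in 6 genes. These 6 were picked by their mean over all libraries, and each was more abundant in petiole. Among the other members some were higher in petiole and some in leaf, so the ratio of 1.24 is a net value. In bulk tissue, more cells that express a gene and more RNA per cell cannot be told apart.

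Of the 68 members, 32 passed the filter, a mean over all 6 libraries of 10 counts or more, 10 had counts below it and 26 were at 0 in every library. A count of 0 allows up to 0.0288 to 0.0326 CPM in a petiole library and 0.0411 to 0.0432 CPM in a leaf library, taking 3 counts as the floor, and covers counting error only. With edgeR's quasi-likelihood test, adjusted over all 27984 tested genes, 18 of the 32 tested members were higher in petiole (56.2%) and 4 were lower (12.5%). Of all tested genes 31.4% were called higher and 31.0% lower, 62.4% in either direction. In all 18 and all 4 called members the petiole and leaf libraries did not overlap, while 31.1% of all tested genes were called higher without overlap and 30.7% lower without overlap. The median log2 fold change of petiole over leaf was 0.82 for the tested members and 0.01 for all tested genes. At least 4-fold higher in petiole, a log2 fold change of 2 or more, were 12 of the 32 members (37.5%) and 11% of all tested genes. Passing the filter depends on the levels themselves: 2 of the 32 members reached a mean of 10 counts in petiole alone and 2 in leaf alone. The 2 in petiole alone, BraA05g007690.3C and BraA03g011390.3C, are among the 18 called higher and the 12 at least 4-fold higher. Of the 2 in leaf alone, BraA10g013380.3C is among the 4 called lower and BraA06g016850.3C was not called.

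**Figure D1:**
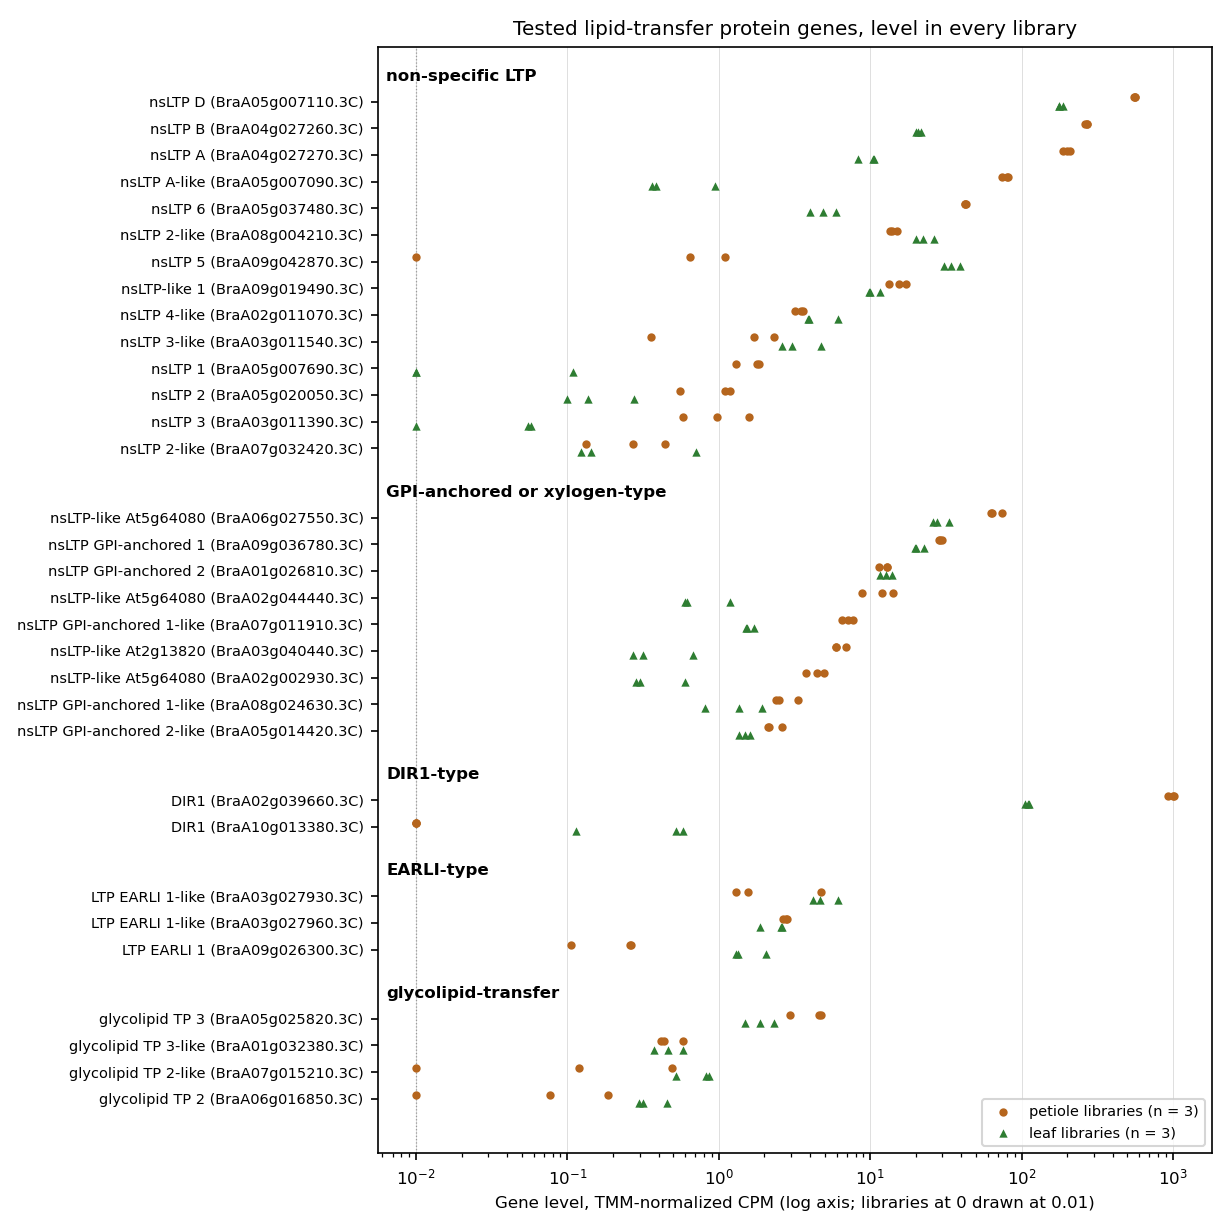
Level of the 32 tested lipid-transfer protein genes in every library, in TMM-normalized CPM on a log axis, grouped by role and ordered by mean level. Circles are the 3 petiole libraries and triangles the 3 leaf libraries, and libraries at 0 are drawn at 0.01. Most of the abundant genes have their petiole circles to the right of their leaf triangles, while LTP 5 (BraA09g042870.3C) shows the opposite.

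**Figure D2:**
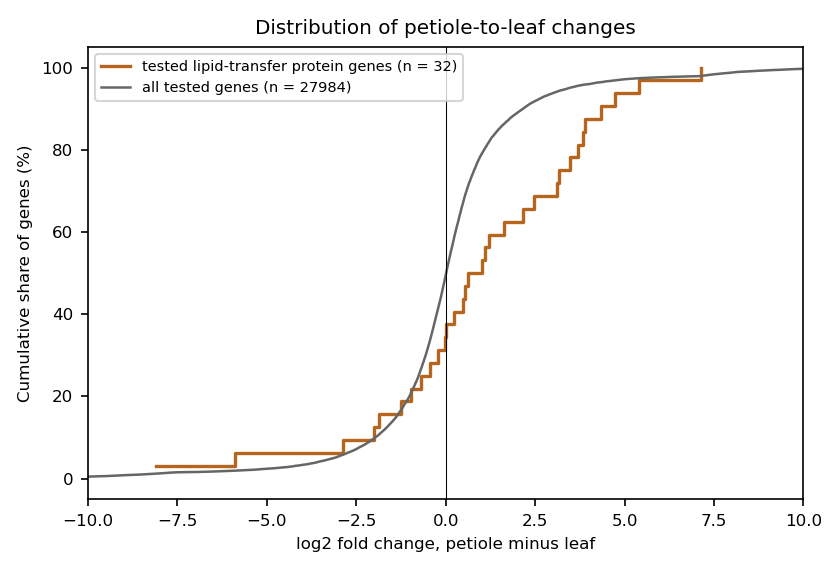
Cumulative share of genes (percent) against the log2 fold change, petiole minus leaf, for the 32 tested lipid-transfer protein genes (stepped line) and all 27984 tested genes (smooth line). The members' line runs to the right of that of all genes between changes of 0 and about 5, with medians of 0.82 and 0.01.

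The DIR1-type group held the member with the highest CPM in petiole, while protein D had the highest CPM in leaf. BraA02g039660.3C (A02, 27618433 to 27618747, minus strand), described as putative lipid-transfer protein DIR1, had 926, 995 and 1018 CPM in petiole against 106, 112 and 110.0 CPM in leaf. All petiole libraries lay far above all leaf libraries. The log2 fold change was 3.16 (SE 0.0487; adjusted p = 3.30e-09 by edgeR), or 8.96-fold. It made up 42.2% ± 0.976 of the members' summed CPM in petiole and 22.5% ± 0.677 in leaf (SD, n = 3 each). Another DIR1-type gene went the other way at a very low level. BraA10g013380.3C (A10, 10954364 to 10954696) was at 0 in every petiole library and had 0.576, 0.520 and 0.114 CPM in leaf, from 40, 38 and 8 counts. It was called lower in petiole (edgeR adjusted p = 0.00729, and 0.0557 with a replicate block), at least 39.5-fold when set against 3 counts over the 3 petiole libraries. This bound takes the listed 0 as a counted value. Without leaf replicate 1 or leaf replicate 2 the gene fell below the filter and had no call. The remaining 3 DIR1-type genes did not pass the filter. BraA10g013290.3C had 5, 6 and 7 counts in petiole and 12, 9 and 9 in leaf, BraA09g043320.3C had 4, 2 and 0 in petiole and 30, 0 and 6 in leaf, and BraA05g038220.3C was at 0 throughout.

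At BraA10g013290.3C the gene value holds only a small part of the reads assigned to the place. An assembled transcript on the same strand overlaps the annotated gene (A10, 10880289 to 10880885) without matching its structure, and is left out of the gene value. It had 2199, 2215 and 1868 counts in petiole against 1867, 1688 and 1145 in leaf. Scaled like the genes, this was 21.3 ± 1.17 CPM in petiole and 22.1 ± 5.38 CPM in leaf (SD, n = 3 each), and the log2 fold change was 0.01 (SE 0.201; adjusted p = 0.982 over isoforms by edgeR). These levels lie below those of BraA02g039660.3C and above those of the other DIR1-type genes in both tissues.

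Among the nsLTPs, 9 of 14 tested members rose in petiole, 2 fell and 3 were not called. Another 14 of the 30 were at 0 in every library and 2 had counts below the filter. The group summed to 1187 ± 8.53 CPM in petiole and 293 ± 6.48 CPM in leaf (SD, n = 3 each). Proteins A, B and D carry names first given to the lipid-transfer proteins of broccoli, where they were found in the wax of the leaf surface.

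Protein D (BraA05g007110.3C, A05, 3619252 to 3619944) had the highest CPM of the nsLTPs, with 556, 564 and 561 CPM in petiole against 187, 177 and 176 CPM in leaf. It rose by a log2 fold change of 1.64 (SE 0.0372; adjusted p = 1.73e-08 by edgeR). Because other members rose more, its share of the members' summed CPM was smaller in petiole, 24.2% ± 0.504, than in leaf, 37.1% ± 1.24 (SD, n = 3 each).

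Proteins B and A are neighbours on A04, on the same strand and 2025 bases apart, with no annotated gene between them. Protein B (BraA04g027260.3C, A04, 19259999 to 19260630) had 269, 271 and 262 CPM in petiole and 20, 21.6 and 20.7 CPM in leaf. Protein A (BraA04g027270.3C, A04, 19262656 to 19263249) had 189, 201 and 208 CPM in petiole and 10.5, 10.6 and 8.29 CPM in leaf. Both rose, with no overlap between tissues, by log2 fold changes of 3.69 (SE 0.0480; edgeR adjusted p = 2.03e-09) and 4.34 (SE 0.106; edgeR adjusted p = 2.43e-08). A protein A-like gene on A05 (BraA05g007090.3C, A05, 3602723 to 3603243) lies 16008 bases from protein D, with 1 annotated gene between them. It had 80.2, 74.4 and 81.5 CPM in petiole and 0.360, 0.383 and 0.938 CPM in leaf, from 25, 28 and 66 counts. Its log2 fold change of 7.13 (SE 0.310; adjusted p = 4.53e-07 by edgeR) was the largest rise of the family and exceeded that of its neighbour, protein D. Where copies in such clusters are near-identical, the quantification may have split reads between them. Sequence identity between them was not analysed here.

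LTP 6 (BraA05g037480.3C) had 43.0, 42.1 and 42.1 CPM in petiole and 4.0, 5.91 and 4.85 CPM in leaf. It rose by 3.11 (SE 0.144; edgeR adjusted p = 6.40e-07) on the log2 scale. Rises at low levels rest on few leaf counts. LTP 1 (BraA05g007690.3C, A05, 3940695 to 3941140) had 135, 176 and 168 counts in petiole and 0, 8 and 0 in leaf, that is 1.30, 1.80 and 1.83 CPM in petiole and 0, 0.109 and 0 CPM in leaf. Its log2 fold change was 5.41 (SE 1.23; edgeR adjusted p = 0.00548), and without the leaf library that holds all 8 counts it was 10.15, a value set by zeros. LTP 3 (BraA03g011390.3C, A03, 4932869 to 4933366) had 0.971, 1.58 and 0.576 CPM in petiole and 0.0576, 0.0547 and 0 CPM in leaf. It rose by 4.74 (SE 1.08; edgeR adjusted p = 0.00545). An LTP 2 gene (BraA05g020050.3C) with 0.948 ± 0.345 CPM in petiole and 0.170 ± 0.0917 CPM in leaf (SD, n = 3 each) was called higher, a log2 fold change of 2.47, but lost its call without petiole replicate 2 (2.27, edgeR adjusted p = 0.0551). The smallest nsLTP rise was that of nsLTP-like 1 (BraA09g019490.3C), with 15.3 ± 1.97 CPM in petiole and 10.5 ± 0.975 CPM in leaf (SD, n = 3 each), a log2 fold change of 0.55 (SE 0.130; adjusted p = 0.00693 by edgeR).

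LTP 5 was 1 of the 4 members called lower in petiole. BraA09g042870.3C (A09, 33238392 to 33238849) had 0.644, 1.10 and 0 CPM in petiole against 30.9, 34.2 and 39.4 CPM in leaf. The petiole libraries held 67, 108 and 0 counts, and each lay far below every leaf library. It fell by 5.89 on the log2 scale (SE 0.811; edgeR adjusted p = 0.000361). LTP 5 made up 0.0252% ± 0.0238 of the members' summed CPM in petiole and 7.19% ± 0.957 in leaf (SD, n = 3 each), the third largest share there. The neighbouring LTP 12-like gene, BraA09g042860.3C, 9616 bases away on the same strand, was at 0 in every library. The other nsLTP that fell, LTP 2-like BraA08g004210.3C, had 15.0, 13.6 and 13.9 CPM in petiole and 26.5, 20.1 and 22.4 CPM in leaf. Its log2 fold change was -0.70 (SE 0.118; edgeR adjusted p = 0.00118) relative to the bulk of genes, and 0.06 on the log2(FPKM + 1) scale (limma adjusted p = 0.570), so its direction depends on the scaling.

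The 3 nsLTP genes that passed the filter but not the test were LTP 4-like BraA02g011070.3C (log2 fold change -0.44, SE 0.238), LTP 3-like BraA03g011540.3C (-1.24, SE 0.613) and LTP 2-like BraA07g032420.3C (-0.21, SE 0.987). The LTP 3-like gene had 0.356, 1.72 and 2.30 CPM in petiole and 4.72, 2.60 and 3.03 CPM in leaf, with every petiole library below every leaf library and a wide spread among the petiole libraries. With the transcripts under its name that the gene value leaves out, it was called lower in petiole (log2 fold change -0.79, edgeR adjusted p = 0.0397). LTP genes on A01 at 1 place were listed under 2 names, BraA01g034520.3C and BraA01g034530.3C, with the same coordinates and strand. The first was at 0 throughout and the second had 0, 5 and 13 counts in petiole and 0 in leaf, so which of them the reads belong to is uncertain.

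**Figure D3:**
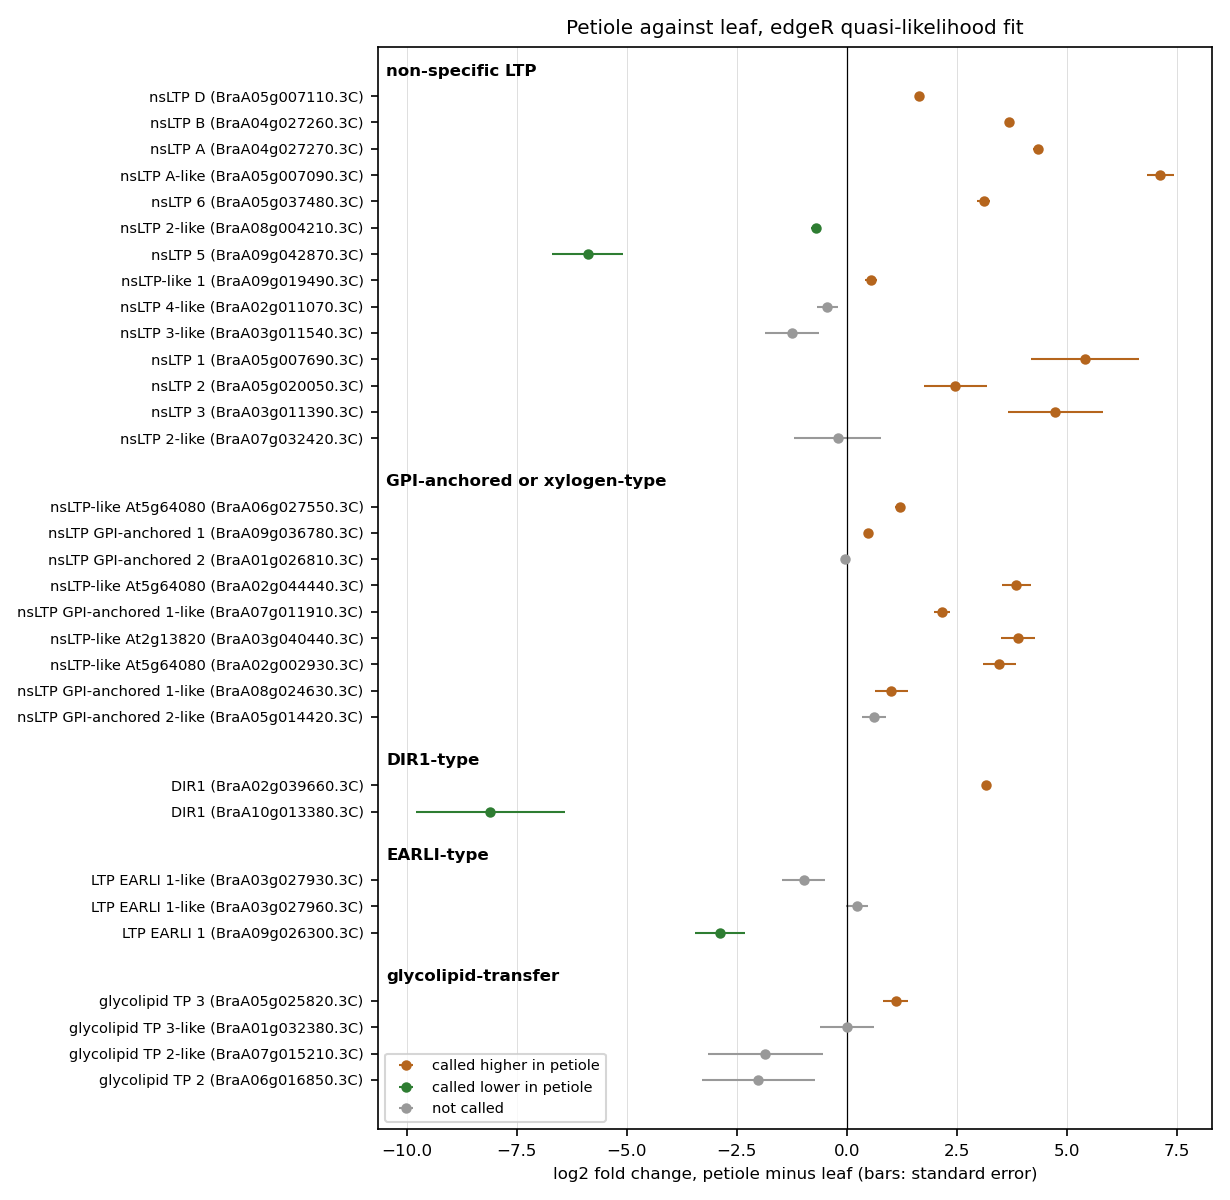
Log2 fold change, petiole minus leaf, of the 32 tested lipid-transfer protein genes, with standard errors as bars, grouped by role. Colour gives the edgeR call at adjusted p below 0.05: 18 higher, 4 lower and 10 not called. Changes range from -8.10, for a DIR1-type gene at 0 in every petiole library whose fitted value is no bound, to 7.13.

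Of the 9 tested GPI-anchored or xylogen-type genes, 7 rose in petiole and 0 fell, and the other 13 were at 0 (9 genes) or below the filter (4 genes). GPI-anchored lipid-transfer proteins are known in Arabidopsis for exporting cuticular wax to the surface. Arabidopsis At5g64080 and At2g13820 are known as xylogen protein genes. The group summed to 143 ± 7.48 CPM in petiole and 69.1 ± 5.91 CPM in leaf (SD, n = 3 each). On the log2(FPKM + 1) scale 9 of 9 were called higher by limma, where 59.0% of all tested genes were called higher and 15.2% lower.

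The most abundant of them, At5g64080-like BraA06g027550.3C (A06, 19241396 to 19242483), had 64.0, 63.0 and 73.9 CPM in petiole and 27.6, 33.4 and 25.9 CPM in leaf. It rose by 1.21 (SE 0.111; edgeR adjusted p = 3.39e-05). The other At5g64080-like genes were much rarer and rose more. BraA02g044440.3C (A02, 30625047 to 30626142) had 8.88, 11.9 and 14.1 CPM in petiole and 0.619, 0.602 and 1.19 CPM in leaf. BraA02g002930.3C (A02, 1423709 to 1424784) had 3.77, 4.47 and 4.98 CPM in petiole and 0.302, 0.602 and 0.284 CPM in leaf. Their log2 fold changes were 3.85 (SE 0.331; edgeR adjusted p = 2.27e-05) and 3.47 (SE 0.381; edgeR adjusted p = 9.62e-05), and no petiole library overlapped a leaf library.

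Of the At2g13820-like genes only BraA03g040440.3C (A03, 20146470 to 20147161) passed the filter. It had 5.99, 6.93 and 5.96 CPM in petiole and 0.677, 0.315 and 0.270 CPM in leaf. Its log2 fold change was 3.90 (SE 0.385; edgeR adjusted p = 5.15e-05). Its neighbour BraA03g040450.3C, which has the same description, starts 1062 bases away on the other strand and had 0, 6 and 0 counts in petiole and 4, 0 and 0 in leaf. The members of this divergent pair thus differed widely in level in both tissues.

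GPI-anchored 1 (BraA09g036780.3C, A09, 29159493 to 29164831) had 28.6, 29.7 and 29.1 CPM in petiole and 19.9, 22.7 and 20 CPM in leaf. It rose by a small but steady 0.48 (SE 0.0827; edgeR adjusted p = 0.00126). The GPI-anchored 1-like gene BraA07g011910.3C had 7.14 ± 0.585 CPM in petiole and 1.58 ± 0.118 CPM in leaf (SD, n = 3 each) and rose by 2.17 (SE 0.184; edgeR adjusted p = 2.06e-05). The other GPI-anchored 1-like gene, BraA08g024630.3C, was called at the edge of the threshold with a log2 fold change of 1.01 (SE 0.378; adjusted p = 0.0483 by edgeR). Its call was lost in 5 of the 6 fits that left out a library, with edgeR adjusted p between 0.0220 and 0.143 over the 6. GPI-anchored 2 (BraA01g026810.3C) had 13, 13 and 11.5 CPM in petiole and 11.7, 12.8 and 13.9 CPM in leaf, and these overlapped. Its log2 fold change was -0.03 (SE 0.112; edgeR adjusted p = 0.805). GPI-anchored 2-like BraA05g014420.3C had 2.28 ± 0.279 CPM in petiole and 1.48 ± 0.122 CPM in leaf (SD, n = 3 each) and did not pass the test (0.62, SE 0.282; edgeR adjusted p = 0.0873). A further GPI-anchored 2 gene, BraA04g032420.3C, had 0 counts in every petiole library and 12, 10 and 12 in leaf, and was below the filter.

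Of 3 tested EARLI-type genes 1 fell in petiole, 0 rose and 2 were not called. EARLI 1 (BraA09g026300.3C, A09, 17711816 to 17712325) had 0.106, 0.265 and 0.261 CPM in petiole and 2.06, 1.33 and 1.29 CPM in leaf. It fell by 2.88 on the log2 scale (SE 0.577; edgeR adjusted p = 0.00286), with no overlap. Of 3 EARLI 1-like genes in a cluster on A03, BraA03g027930.3C (A03, 13928650 to 13929150) had 4.74, 1.29 and 1.55 CPM in petiole and 6.09, 4.69 and 4.19 CPM in leaf. The first petiole library reached the range of leaf and the other petiole libraries did not. The log2 fold change was -0.98 (SE 0.490; edgeR adjusted p = 0.116). It was -1.81 without petiole replicate 1 (edgeR adjusted p = 0.00161) and -1.22 with a replicate block (edgeR adjusted p = 0.0294). BraA03g027960.3C (A03, 13950521 to 13950922) had 2.84, 2.79 and 2.66 CPM in petiole and 1.86, 2.59 and 2.63 CPM in leaf, without overlap but close to each other, and a log2 fold change of 0.23 (SE 0.249; adjusted p = 0.455 by edgeR). On the log2(FPKM + 1) scale it was called higher (0.76, limma adjusted p = 0.000790), where the median of all genes was 0.48. The gene between them, BraA03g027950.3C, had 0, 0 and 11 counts in petiole and 0 in leaf. The group summed to 5.54 ± 1.86 CPM in petiole and 8.91 ± 0.982 CPM in leaf (SD, n = 3 each).

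Glycolipid transfer protein genes were low in both tissues, at 4.85 ± 1.2 CPM in sum in petiole and 3.53 ± 0.420 CPM in leaf (SD, n = 3 each). Only glycolipid transfer protein 3 (BraA05g025820.3C, A05, 19488887 to 19490482) was called among the 4 tested. It had 4.74, 4.56 and 2.94 CPM in petiole and 1.48, 1.88 and 2.30 CPM in leaf, a log2 fold change of 1.11 (SE 0.290; adjusted p = 0.0105 by edgeR). The similar gene BraA01g032380.3C had 0.413, 0.582 and 0.435 CPM in petiole and 0.374, 0.465 and 0.583 CPM in leaf, with overlap between the tissues (log2 fold change 0.01, SE 0.610). Glycolipid transfer protein 2-like BraA07g015210.3C had 0, 0.490 and 0.120 CPM in petiole and 0.864, 0.520 and 0.825 CPM in leaf (-1.85, SE 1.31; edgeR adjusted p = 0.252). Its relative BraA06g016850.3C gave -2.01 (SE 1.29; edgeR adjusted p = 0.210). For both, every petiole library was below every leaf library, with 0 to 48 counts in petiole and 21 to 60 in leaf.

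**Figure D4:**
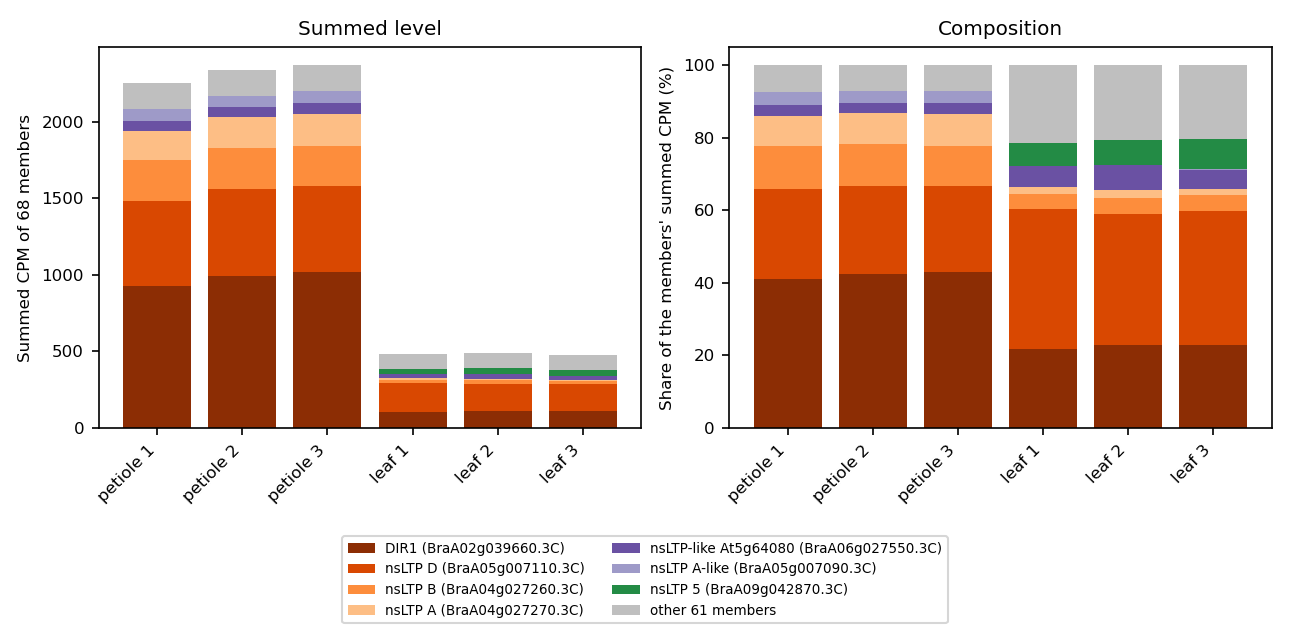
Summed CPM of the 68 members in each library (left) and the same as a share in percent (right), with petiole libraries to the left of leaf libraries. Coloured parts are the 6 members with the highest mean CPM and LTP 5, and grey is the other 61. The bars reach 2253 to 2371 CPM in petiole and 479 to 489.7 CPM in leaf, and LTP 5 is visible only in the leaf bars.

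The order of the members was compared per length, with the deposited FPKM values, which divide by transcript length and library size. In petiole the DIR1 gene BraA02g039660.3C led with 2093 ± 92.8 FPKM (SD, n = 3), rank 7 of all 45517 genes. Protein B followed at 508 ± 11.4 FPKM, protein D at 476 ± 4.64 FPKM, protein A at 375 ± 16 FPKM and the protein A-like gene at 148 ± 6.69 FPKM (SD, n = 3 each). Each of these stood above the next in every petiole library. LTP 6 and At5g64080-like BraA06g027550.3C came next, at 83.5 ± 1.42 and 79.8 ± 7.02 FPKM, and did not differ beyond their spread. In leaf the DIR1 gene also led, at 139 ± 5.34 FPKM, rank 187 of all genes, and protein D came second at 90.9 ± 2.78 FPKM (SD, n = 3 each). LTP 5 at 39.0 ± 4.85 FPKM and LTP 2-like BraA08g004210.3C at 31.2 ± 4.12 FPKM overlapped, and protein B was next at 23.4 ± 1.15 FPKM (SD, n = 3 each). The annotated models hold coding sequence only, as all their lengths are multiples of 3. Where no longer transcript was assembled, untranslated parts are not in the length used. This holds for the DIR1 gene and proteins B and A, with models of 315, 354 and 357 bases. All counts of protein D lay on assembled transcripts of 695 and 833 bases. Its place in the order against these genes therefore depends on the length used. In CPM, protein D stood above the DIR1 gene in leaf (180.2 against 109 on average) and above protein B in petiole (560.3 against 267).

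For 6 members more than 1 transcript entered the gene value. Of 41 tested transcripts under the members' names 16 were called higher in petiole and 4 lower by edgeR, while 15.4% of all 52982 tested isoforms were called higher and 14.1% lower, 29.5% in either direction. The 4 lower calls were 0 with a replicate block and 1 to 3 in the fits that left out a library, and the higher calls were 13 with the block. In protein D the annotated coding model had 0 counts in every library, and both assembled transcripts that share a junction with it rose alike, by 1.70 (SE 0.0360; edgeR adjusted p = 1.36e-05) and 1.68 (SE 0.0856; edgeR adjusted p = 0.000133). The longer of them held 73.6% ± 1.37 of the gene's counts in petiole and 73.2% ± 1.30 in leaf (SD, n = 3 each), so their balance did not differ beyond the spread. In At5g64080-like BraA06g027550.3C the annotated transcript rose by 1.42 (SE 0.177; edgeR adjusted p = 0.00306), from 62.2 ± 6.29 CPM in petiole and 24.2 ± 5.22 CPM in leaf (SD, n = 3 each). Its assembled variant had 4.74 ± 0.501 CPM in petiole and 4.78 ± 1.41 CPM in leaf, with a log2 fold change of 0.04 (SE 0.297; adjusted p = 0.934 by edgeR). The variant's share of the gene was 7.14% ± 1.2 in petiole and 17.1% ± 6.46 in leaf (SD, n = 3 each), and this difference in share was not tested. None of the 886 deposited circular RNAs had a member as its host gene.

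Among genes that make and export the lipids of the plant surface, falls outnumbered rises relative to the bulk of genes. Of 46 tested genes of cutin and wax synthesis and export, 11 were higher and 22 lower in petiole, with a median log2 fold change of -0.42. On the log2(FPKM + 1) scale, where the median of all genes was 0.48, 21 were higher and 12 lower. Relative to the median of all genes the list's median was -0.43 with edgeR and -0.30 on that scale. Not all ECERIFERUM 3 wax genes fell. BraA02g012040.3C was not called (log2 fold change 0.01, edgeR adjusted p = 0.922), and BraA10g015900.3C was called higher (0.43, edgeR adjusted p = 0.0187). Another pair, of ECERIFERUM 3-like genes, led the falls. BraA03g012220.3C had 0, 0 and 0.369 CPM in petiole and 104, 107 and 106 CPM in leaf, and BraA03g012240.3C was at 0 in every petiole library and at 7.50 ± 1.14 CPM in leaf (SD, n = 3), at least 735-fold lower in petiole. Rises included a cytochrome P450 77A3-like gene (BraA08g031540.3C), of a family known for cutin synthesis. It had 6.60 ± 0.628 CPM in petiole and 0.0547 ± 0.0948 CPM in leaf (SD, n = 3 each). A SHINE 3-like regulator (BraA06g032700.3C) rose by 3.44 (SE 1.23, edgeR adjusted p = 0.0401). Its levels were low, at 0.625, 0.867 and 0.695 CPM in petiole and 0, 0.0274 and 0.171 CPM in leaf. Another SHINE 3-like gene, BraA09g005880.3C, was not called (1.77, edgeR adjusted p = 0.244).

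Suberin is the lipid polymer of corky and inner barrier walls. Of 15 tested suberin genes 5 were higher and 5 lower (median 0.31, or 0.29 above all genes with edgeR and -0.44 relative to all genes on the log2(FPKM + 1) scale), with summed levels of 444 to 469 CPM in petiole and 94.5 to 98.2 CPM in leaf. In petiole most of this sum was 1 gene, fatty acyl-CoA reductase 1 (BraA10g018910.3C), with 361, 383 and 366 CPM in petiole and 28.2, 31.6 and 25.8 CPM in leaf. It rose by 3.70 (SE 0.0790; edgeR adjusted p = 1.33e-08). A fatty acyl-CoA reductase 4 gene (BraA06g023410.3C) rose by 3.61 (SE 1.09, edgeR adjusted p = 0.0201). Its levels were 2.45, 1.40 and 2.38 CPM in petiole and 0, 0.109 and 0.398 CPM in leaf. A fatty acyl-CoA reductase 1-like gene (BraA02g009810.3C) was called lower (log2 fold change -0.98, edgeR adjusted p = 0.00477). An omega-hydroxypalmitate O-feruloyl transferase-like gene (BraA07g020390.3C) was at 0 in petiole and at 1.45 ± 0.223 CPM in leaf (SD, n = 3), at least 142-fold lower in petiole. Of 50 tested lipid carriers inside the cell, such as acyl-CoA-binding, oxysterol-binding and patellin proteins, 20 were higher and 13 lower, with a median of 0.20. On the log2(FPKM + 1) scale 34 were higher and 4 lower, with a median of 0.69. On that scale the median of all genes was 0.48, and 59.0% of all tested genes were called higher. Relative to the median of all genes the carriers' median was 0.19 with edgeR and 0.21 on the log2(FPKM + 1) scale. Both lists include a few genes that share only the search words. In the suberin list these include the lysophosphatidate acyltransferases BraA01g034060.3C and BraA05g028420.3C, both called higher, at log2 fold changes of 2.41 and 1.31. The count of 5 suberin rises, the median of 0.31 and the summed levels include them. BraA05g028420.3C had 61.0 CPM in petiole and 24.7 CPM in leaf on average, and BraA01g034060.3C had 7.53 and 1.42 CPM. The cutin and wax list also holds a gene of this kind, BraA07g027970.3C, which was not called.

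Markers of cell types that a leaf or petiole holds are given beside the family. Of 22 tested epidermis markers 6 rose and 10 fell relative to the bulk of genes (10 and 6 on the log2(FPKM + 1) scale), with sums of 279 to 303 CPM in petiole and 418 to 431 CPM in leaf. The list of 29 holds 7 genes at 0 in petiole and 6 at 0 in leaf, and shares its ECERIFERUM and ketoacyl-CoA synthase genes with the cutin and wax list. Its members moved in both directions. MERISTEM L1 (BraA03g049720.3C), a regulator of epidermal identity in Arabidopsis, was at 15.0 CPM in petiole and 39.0 CPM in leaf on average, a log2 fold change of -1.38 (SE 0.104; adjusted p = 1.04e-05 by edgeR). PROTODERMAL FACTOR 2 (BraA09g025450.3C) fell by 1.05 (SE 0.0943; adjusted p = 2.96e-05 by edgeR) on the log2 scale. These genes were named after their values were seen. The protodermal factor 1-like gene BraA05g003100.3C had 64.2, 63.9 and 66.5 CPM in petiole and 2.09, 2.16 and 2.36 CPM in leaf. Xylem markers, given above, rose in sum, with 3 of 25 at 0 in petiole and 5 at 0 in leaf. Relative to the median of all genes the xylem list's median was 1.32 with edgeR and 0.42 on the log2(FPKM + 1) scale. Phloem markers had 5 of 19 higher and 9 lower (6 and 4 on the log2(FPKM + 1) scale), with sums of 362 to 372 CPM in petiole and 591 to 605 CPM in leaf, and 9 of 32 at 0 in petiole and 10 in leaf. Guard cell markers had 0 of 4 higher and 2 lower, with sums of 3.21 to 4.43 CPM in petiole and 13.6 to 15.3 CPM in leaf, with 2 of 6 at 0 in petiole and 2 in leaf. SLAC1 (BraA06g009180.3C) was at 0 in every petiole library and at 5.99, 5.11 and 8.09 CPM in leaf. The part of cell makeup in the changes of the lipid-transfer protein genes was not tested.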

How the data were processed

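Total RNA was depleted of ribosomal RNA and sequenced with a strand-specific kit, per the labels' protocols. The authors deposited estimated counts and FPKM values per transcript, per the file headers. The deposited estimated counts are whole numbers, and the FPKM of a transcript with a count of 0 was set to 0 here. A deposited table of circular RNAs gives back-spliced read counts, per the file headers, and was used only to look for members as host genes. The submitters' processing notes list HISAT2, StringTie and TopHat without versions. The build is not given in the sources used here.

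Libraries were assigned to petiole or leaf from their titles. Gene values were sums of counts over transcripts of class =, j or c. Genes averaging 10 counts or more over 6 libraries were tested in R 4.3.3 with edgeR 4.0.16 (quasi-likelihood test after TMM, fold changes as petiole minus leaf, Benjamini-Hochberg adjustment over all tested genes, called below 0.05). Standard errors are the log2 fold change divided by the root of F. Alternatives used DESeq2 1.42.0, limma 3.58.1 on log2(FPKM + 1) or with 0.1 in place of 1, other filters, other gene values, a replicate block and leaving out each library.

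The members, role groups and lists were chosen with earlier results of these data known. The text names the 3 most abundant members of each group, the 8 largest rises and 8 largest falls without overlap (4 falls were called), and up to 2 rises and 2 falls of each list; all other genes named, among them LTP 6, BraA07g011910.3C, MERISTEM L1 and PROTODERMAL FACTOR 2, were chosen after their values were seen. Lists of other genes were searched by description. Intervals and floors cover counting error only.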

Additional observations from a re-analysis of the deposited data

Results flagged for a closer look

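Some assembled transcripts carry a member's name but are left out of its gene value, and 6 of them held more than 3 counts in a library. They were picked out because they are a signal in data that the gene comparison does not use. The most abundant overlaps the DIR1-type gene BraA10g013290.3C on its strand, with 10982 estimated counts over the 6 libraries, against 5, 6 and 7 counts in petiole and 12, 9 and 9 in leaf for the gene value. A transcript next to the same gene, of a class read as possible run-on, had 93 counts, 3, 0 and 0 in petiole and 30, 7 and 53 in leaf.

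At LTP 5 (BraA09g042870.3C) a transcript of a class read as possible unspliced RNA had 1811 counts, with 89, 2 and 74 in petiole and 1017, 261 and 368 in leaf. It was below the threshold of the isoform test (log2 fold change -3.74, SE 1.37; edgeR adjusted p = 0.103). A transcript of the same class at LTP 3-like BraA03g011540.3C had 633 counts, with 177, 64 and 125 in petiole and 77, 146 and 44 in leaf. At the At2g13820-like gene BraA05g024580.3C such a transcript had 710 counts, with 78, 93 and 192 in petiole and 149, 94 and 104 in leaf, while the gene itself had 0 counts in petiole and 1, 1 and 18 in leaf. The place of BraA01g021790.3C, at 0 in every library as a gene, had a nearby possible run-on transcript with 106 counts, 53, 27 and 23 in petiole and 3, 0 and 0 in leaf. It was not called in the isoform test (log2 fold change 4.51, SE 1.56; edgeR adjusted p = 0.0889).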

How the results depend on the processing

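Of the 22 called members, 18 kept direction and call in every alternative that gave a value, and 20 in every fit without 1 library that gave a value. BraA10g013380.3C gave none without leaf replicate 1 or leaf replicate 2, or at a mean of at least 50 counts, because it fell below the filter. On the log2(FPKM + 1) scale the median of all genes shifted to 0.48. The members called were 14 to 21 higher and 3 to 5 lower over all alternatives. The 14 were of 28 tested members, with annotated transcripts only, where 5065 of 25854 tested genes were called higher. The 21 were of 32 tested members, with limma, where at a pseudocount of 1 59.0% of all tested genes were called higher. The members' share of higher calls thus lay much nearer to that of all genes with limma than in the main fit. The members' median was 0.36 without a filter, 1.2 at a mean of at least 50 counts, 0.57 with annotated transcripts only, and 1.15 or 1.5 with limma at a pseudocount of 1 or 0.1. Without 1 library it ran between 0.68 and 1.11, and the counts were 16 to 18 higher and 3 to 5 lower. Among all genes, annotated transcripts only gave 5065 higher and 4888 lower, and limma 16497 and 4257, or 16560 and 4269 with 0.1, so that 79.5% of calls were rises against 50.3%; for the members this was 87.5% against 81.8%. Over all genes, leaving out a library gave 8027 to 8453 higher and 8047 to 8253 lower. Same-numbered libraries did not deviate together (correlations 0.00314, 0.00298 and -0.00257). This cannot show whether they share a plant or batch. With a replicate block 17 members were higher and 4 lower, 8148 and 8166 of all genes, and the members' median was 0.85. Isoforms of members called lower were 4, but 0 with the block and 1 to 3 without 1 library; higher were 13 with the block.

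Direction turned for BraA08g004210.3C with limma (0.06 at both pseudocounts), and, among members not called, for BraA01g026810.3C with upper-quartile scaling (0.03), with limma (0.65 and 0.71), and without petiole replicate 3 (0.02) or leaf replicate 3 (0.03). It also turned for BraA02g011070.3C with limma (0.29 and 0.34), for BraA07g032420.3C with limma (0.21 and 0.66), the block (0.10) and without petiole replicate 2 (0.13) or leaf replicate 3 (1.07), and for BraA01g032380.3C without petiole replicate 2 (-0.16), leaf replicate 1 (-0.14) or leaf replicate 2 (-0.01). Over the fits without 1 library these ran between -0.10 and 0.03 for BraA01g026810.3C, -0.69 and 1.07 for BraA07g032420.3C, and -0.16 and 0.18 for BraA01g032380.3C. The cause was not tested. At low depth, members below the filter give no call: without a filter 1 of 10 was called, BraA04g032420.3C, lower in petiole (edgeR adjusted p = 0.0342).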

Other observations

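Members that lie beside each other did not share one pattern. Of 7 pairs of members within 20 kb, the pair on A04, proteins B and A, rose together, by 3.69 and 4.34 on the log2 scale. On A05 the protein A-like gene and protein D both rose, by 7.13 and 1.64. In the pairs on A03 and A09 that hold At2g13820-like and LTP 5 genes, 1 gene was called and the other had at most 6 counts in any library. Summing all transcripts under a member's name, the At2g13820-like gene BraA01g021790.3C was called higher in petiole (4.47, SE 1.42; edgeR adjusted p = 0.0238), on reads that lie beside its annotated place. The transcript that holds these reads was not called in the isoform test (4.51, SE 1.56; edgeR adjusted p = 0.0889).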
